A study of Rattus norvegicus with 23 samples.

Results

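The genes described here are the receptors through which leukocytes and microglia sense chemokines and other chemoattractants: Ccr1, Ccr2, Ccr7, Ccrl2, Cxcr2, Cxcr4, Cmklr1, Fpr1 and Fpr2. They were chosen by name, and 8 of the 9 were found among the 20301 genes of the deposited table. Ccr1, a receptor for inflammatory CC chemokines, was not analysed here. Most of these proteins are receptors with 7 membrane-spanning segments that couple to inhibitory G proteins and turn a gradient of ligand into directed movement. Ccr2 brings monocytes to sites of Ccl2, Cxcr2 brings neutrophils to Cxcl1 and Cxcl2, Cxcr4 holds cells near Cxcl12, and Ccr7 leads dendritic cells to lymph nodes. Cmklr1 senses chemerin, Ccrl2 binds chemerin without classical signalling, and the formyl peptide receptors Fpr1 and Fpr2 detect bacterial and mitochondrial peptides.

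The expression values came from microglia of Wistar rats operated on at postnatal day 7. The cells were isolated 24 h after the operation with CD11b/c magnetic beads and measured by RNA sequencing in 23 samples. Sham pups (n = 6) had a sham operation with no listed injection, and LPS pups (n = 5) received 0.1 mg/kg of lipopolysaccharide intraperitoneally 4 h before a sham operation. NaCl/HI pups (n = 6) received NaCl and LPS/HI pups (n = 6) received the same dose of LPS, and both then had the left carotid artery ligated and breathed 8% oxygen for 50 min, which is called hypoxia-ischemia (HI). Sham and LPS samples each held the entire brain of 1 pup, whereas HI samples pooled the ipsilateral hemispheres of 2 pups, so HI, the tissue taken and pooling cannot be told apart. LPS against Sham, NaCl/HI against Sham and LPS/HI against Sham likewise compare injected with uninjected pups. CD11b/c also marks monocytes, border-associated macrophages and neutrophils. In such bulk samples, more cells of a type and more RNA per cell cannot be told apart.

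Values are rlog values, a log2 scale on which the method draws weakly expressed genes toward their mean, and the authors had removed 3 surrogate variables from them. A difference of 1 on this scale is a fold change of 2, levels of different genes are not comparable because the values are not per length, and the depth of each library is unknown. The library medians lay between 7.75 and 7.82. The microglial genes Cx3cr1 and P2ry12 had group means of at least 15.46 and 13.76, respectively. The mean of 18 neutrophil markers lay between 6.02 and 6.62 in the groups and reached 7.18 in 1 LPS/HI sample. A single limma model held all 23 samples, p-values were adjusted by Benjamini-Hochberg over all genes, and a gene passed at an adjusted p under 0.05. Libraries were numbered 1 to 23, and numbers 1-12 held replicates 1 to 3 of each group, so both runs of numbers held every group. What the numbers stand for is not given in the sources used here.

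Of the 8 receptors, 5 passed in at least 1 of the 7 comparisons, as did 23.1% of all genes, and all these differences were below 2-fold. Fpr1 was lower in LPS than in Sham, Fpr2 was above its LPS level in LPS/HI, and Ccr7 and Cxcr4 were lower and Ccrl2 higher in LPS than in NaCl/HI. The promoter windows of the passing receptors are shown, placed around the start that the annotation gives for each gene. They were taken from RefSeq on the rat build GRCr8, which is not the build used for quantification, and 7 of the 8 receptors had an entry, all but Ccr7. Each runs from 250 bases before to 50 after the annotated start, 5′ to 3′ on the gene's strand. Capitals mark matches, searched on both strands, to the TATA box (TATAAA), the GC box (GGGCGG), the CCAAT box (those letters) and the core of the hypoxia response element (ACGTG or else GCGTG), which were chosen after the sequences had been seen. The windows are Cxcr4 at chr13:42634239-42634538 on the minus strand, Ccrl2 at chr8:119914924-119915223 on the minus strand, Fpr1 at chr1:67422471-67422770 on the minus strand and Fpr2 at chr1:67449387-67449686 on the plus strand.
Cxcr4: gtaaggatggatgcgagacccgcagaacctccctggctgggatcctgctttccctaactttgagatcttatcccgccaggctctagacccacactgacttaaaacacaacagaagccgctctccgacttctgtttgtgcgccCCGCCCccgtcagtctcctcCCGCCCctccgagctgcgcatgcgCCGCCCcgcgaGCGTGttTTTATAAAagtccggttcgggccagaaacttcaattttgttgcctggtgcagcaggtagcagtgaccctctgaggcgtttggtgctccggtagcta
Ccrl2: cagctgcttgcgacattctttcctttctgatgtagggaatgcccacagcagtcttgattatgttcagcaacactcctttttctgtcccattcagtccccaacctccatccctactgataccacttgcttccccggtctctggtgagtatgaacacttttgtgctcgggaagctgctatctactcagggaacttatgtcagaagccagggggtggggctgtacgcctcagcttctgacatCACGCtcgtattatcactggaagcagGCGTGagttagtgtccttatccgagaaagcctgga
Fpr1: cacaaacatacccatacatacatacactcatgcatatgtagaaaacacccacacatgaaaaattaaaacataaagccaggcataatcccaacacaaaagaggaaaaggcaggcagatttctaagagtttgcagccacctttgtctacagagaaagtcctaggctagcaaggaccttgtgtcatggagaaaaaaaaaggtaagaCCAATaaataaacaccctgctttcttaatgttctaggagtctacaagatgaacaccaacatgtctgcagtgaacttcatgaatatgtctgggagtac
Fpr2: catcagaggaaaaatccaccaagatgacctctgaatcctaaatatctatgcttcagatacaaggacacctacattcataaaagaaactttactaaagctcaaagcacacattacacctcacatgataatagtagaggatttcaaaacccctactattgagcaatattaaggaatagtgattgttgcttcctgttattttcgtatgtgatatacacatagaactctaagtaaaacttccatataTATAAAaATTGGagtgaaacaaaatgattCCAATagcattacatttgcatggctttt
The Cxcr4 window held 3 matches to GGGCGG, each on the opposite strand, and a pair of overlapping matches to TATAAA that began at positions -46 and -44 from the start. It also held GCGTG at position -53. GGGCGG was found in 33.1% of the 33469 promoters of the RefSeq table and TATAAA in 14.2%. Ccrl2 held GCGTG on each side of its start, which 29.7% of promoters have on either strand. Fpr1 held only CCAAT, at position -47, which 37.5% of promoters have. The Fpr1 bases after the annotated start open with atg, the letters of a start codon. That start may therefore be one of translation rather than transcription. Fpr2 held CCAAT at position 0 on the opposite strand and at position 22, and 1 match to TATAAA at -7. Both CCAAT matches thus began at or after its annotated start. ACGTG, present in 19.3% of promoters, matched in 0 of the 7 windows. These matches are letters in a window and nothing was measured at them.

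**Figure D1:**
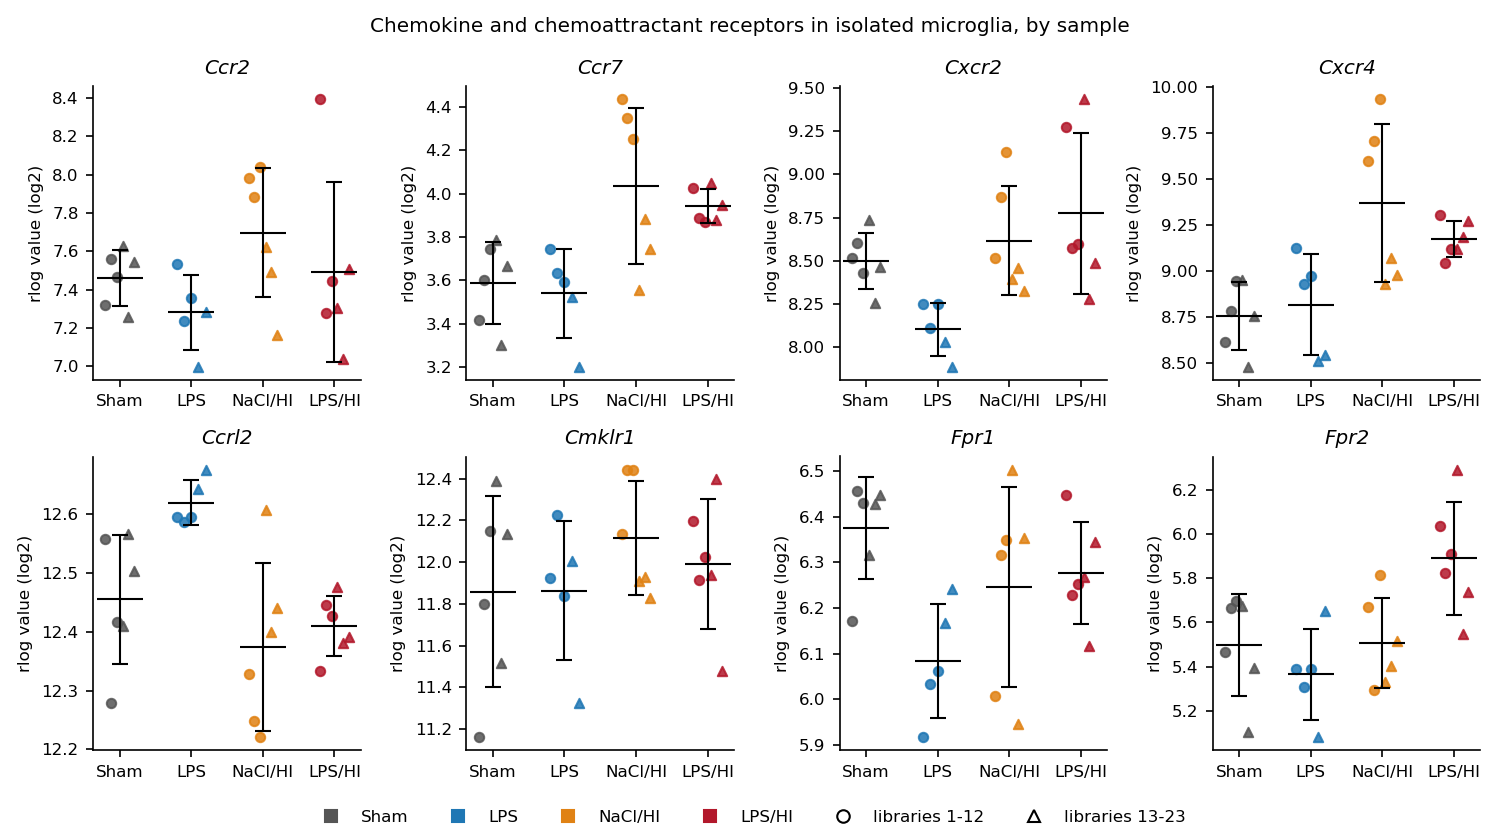
Each point is 1 sample and gives the rlog value (log2, vertical axis) of the named receptor in the 4 groups; circles are libraries 1-12, triangles libraries 13-23, horizontal lines group means and bars ± SD (n = 6, or 5 for LPS). The NaCl/HI circles of Cxcr4 lie between 9.60 and 9.93, above every other sample, and the LPS points of Ccrl2 lie between 12.59 and 12.67.

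Ccr2, the receptor by which classical monocytes follow Ccl2, ranged from 7.26 to 7.63 in Sham with a median of 7.50. The LPS samples had values of 7.53, 7.24, 7.36, 7.0 and 7.28. NaCl/HI ranged from 7.16 to 8.04 (median 7.75) and LPS/HI from 7.04 to 8.39 (median 7.38). All 4 groups overlapped, and 1 LPS/HI sample, replicate 1, stood apart at 8.39 while the other 5 were at most 7.51. NaCl/HI had the highest mean and LPS the lowest, with a difference for LPS against NaCl/HI of -0.41 (95% interval -0.80 to -0.03, adjusted p = 0.181). No Ccr2 comparison passed.

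Ccr7, which guides dendritic cells and lymphocytes along Ccl19 and Ccl21, had Sham values from 3.30 to 3.78 (median 3.64). In LPS it had 3.75, 3.64, 3.59, 3.52 and 3.20. NaCl/HI spread from 3.56 to 4.43 (median 4.07), whereas the LPS/HI samples lay close together, from 3.87 to 4.05 (median 3.92). Every LPS/HI sample was thus above every Sham and every LPS sample, and NaCl/HI overlapped with all groups. Ccr7 was lower in LPS than in NaCl/HI by a log2 difference of -0.50 ± 0.14 (SE, adjusted p = 0.0280, limma), with 5 of 5 LPS samples below the NaCl/HI mean. The comparisons of LPS/HI with Sham (0.36, adjusted p = 0.0885), LPS/HI with LPS (0.40, adjusted p = 0.135) and NaCl/HI with Sham (0.45, adjusted p = 0.164) did not pass in limma. At these low values the rlog shrinks differences.

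Cxcr2 is the receptor by which neutrophils follow Cxcl1 and Cxcl2. It ranged from 8.26 to 8.73 in Sham (median 8.49). The LPS samples had 8.25, 8.11, 8.25, 8.03 and 7.89. NaCl/HI ranged from 8.33 to 9.13 (median 8.49) and LPS/HI from 8.28 to 9.44 (median 8.58). All LPS samples were below all samples of the other 3 groups, and in LPS/HI replicates 1 and 4, at 9.27 and 9.44, stood above the other 4. The largest difference was that of LPS/HI against LPS, 0.67 ± 0.18 (SE, 95% interval 0.30 to 1.04), with an adjusted p of 0.0533 in limma that missed the threshold. LPS differed from NaCl/HI by -0.51 (adjusted p = 0.0778) and from Sham by -0.40 (adjusted p = 0.130), so no Cxcr2 comparison passed in this model. With a block for library run, LPS/HI against LPS passed (0.69, adjusted p = 0.0434, limma), and with 19 residual degrees of freedom so did LPS/HI against LPS (adjusted p = 0.0212) and LPS against NaCl/HI (adjusted p = 0.0435). Reads of Cxcr2 and its neighbouring paralog Cxcr1 could be split uncertainly in transcript counting.

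Cxcr4, the Cxcl12 receptor that keeps leukocytes in bone marrow and positions migrating cells, had Sham values from 8.48 to 8.95 (median 8.77). LPS samples had 9.12, 8.93, 8.97, 8.51 and 8.54. NaCl/HI reached the highest values, from 8.93 to 9.93 (median 9.33), and LPS/HI lay within 9.04 and 9.30 (median 9.15). Every LPS/HI sample was above every Sham sample, and in LPS/HI the SD was 0.10 against 0.43 in NaCl/HI. Cxcr4 was lower in LPS than in NaCl/HI by -0.55 ± 0.16 (SE, adjusted p = 0.0334, limma), a 1.47-fold difference with 5 of 5 LPS samples below the NaCl/HI mean. The difference of NaCl/HI against Sham was 0.62 ± 0.15 with 6 of 6 samples above the Sham mean, but its adjusted p was 0.119 in limma, and LPS/HI differed from Sham by 0.42 (adjusted p = 0.0839).

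Several receptors divided by library number in NaCl/HI and in LPS, where the samples of libraries 1-12 did not overlap with those of 13-23. In NaCl/HI these were Cxcr4, Ccr7, Cxcr2, Ccr2 and Cmklr1, all higher in libraries 1-12, and Ccrl2, which was lower. In LPS, Cxcr4, Ccr7 and Cxcr2 were higher and Ccrl2 and Fpr1 lower in libraries 1-12, whereas in Sham and LPS/HI the runs overlapped for all 8 receptors. Each run held at most 3 samples of a group, so few that values can easily part. The share of all genes divided in this way is not given here. The division is thus not read as particular to the receptors. For Cxcr4, the 3 NaCl/HI samples of libraries 1-12 had values from 9.60 to 9.93, and those of libraries 13-23 from 8.93 to 9.07. For Ccr7 these ranges were 4.25 to 4.43 and 3.56 to 3.88. LPS samples also divided, with Cxcr4 from 8.93 to 9.12 in libraries 1-12 and from 8.51 to 8.54 in 13-23, and Ccr7 from 3.59 to 3.75 and from 3.20 to 3.52. The Sham ranges of Cxcr4 overlapped, from 8.61 to 8.94 and from 8.48 to 8.95. LPS against Sham thus pointed opposite ways for Cxcr4, at 0.23 in libraries 1-12 (adjusted p = 0.162, limma) and -0.20 in 13-23 (adjusted p = 0.328). Fitted within libraries 1-12 alone, NaCl/HI exceeded Sham by 0.97 for Cxcr4 (adjusted p = 0.000485, limma) and by 0.76 for Ccr7 (adjusted p = 0.00127). Within libraries 13-23 the same differences were 0.26 (adjusted p = 0.762) and 0.14 (adjusted p = 0.785). The fits within a run of library numbers, here and below, were added after the values had been seen. Their residual degrees of freedom were not lowered for the 3 removed surrogate variables. Their p-values are therefore more lenient than those of the model of all samples. In a limma fit of all samples, the NaCl/HI against Sham difference was larger in libraries 1-12 than in 13-23 by 0.70 ± 0.16 for Cxcr4 (adjusted p = 0.678) and by 0.61 ± 0.18 for Ccr7 (adjusted p = 0.942). In this test 0% of the 20301 genes passed, with 832 at an unadjusted p under 0.05. LPS/HI against NaCl/HI pointed opposite ways for Cxcr4, at -0.59 in libraries 1-12 (adjusted p = 0.0279, limma) and 0.20 in 13-23 (adjusted p = 0.482). For Ccr7 it was -0.42 (adjusted p = 0.10, limma) and 0.23 (adjusted p = 0.539).

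In NaCl/HI the other divided receptors had smaller gaps between the runs. Values of Cxcr2 ran from 8.51 to 9.13 in libraries 1-12 and from 8.33 to 8.46 in 13-23, those of Ccr2 from 7.88 to 8.04 and from 7.16 to 7.62, and those of Cmklr1 from 12.14 to 12.44 and from 11.83 to 11.93. NaCl/HI against Sham thus pointed opposite ways in the runs for all 3 receptors. It was 0.32 (adjusted p = 0.326, limma) and -0.09 (adjusted p = 0.921) for Cxcr2, 0.52 (adjusted p = 0.196) and -0.05 (adjusted p = 0.932) for Ccr2, and 0.64 (adjusted p = 0.0905) and -0.13 (adjusted p = 0.902) for Cmklr1, and none of these passed. The test of the difference between the runs gave 0.42 for Cxcr2, 0.57 for Ccr2 and 0.76 for Cmklr1 (adjusted p = 1.00 for each, limma).

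LPS against NaCl/HI kept its direction in both runs for Cxcr4 and Ccr7. For Cxcr4 it was -0.74 in libraries 1-12 (adjusted p = 0.00198, limma) and -0.47 in 13-23 (adjusted p = 0.0512). For Ccr7 the values were -0.69 (adjusted p = 0.00198) and -0.36 (adjusted p = 0.276). Both genes lost the call when NaCl/HI replicate 1, 2 or 3 or LPS replicate 4 or 5 was left out, and Cxcr4 also without LPS replicate 2, with adjusted p up to 0.102 for Cxcr4 and 0.0850 for Ccr7. With robust variances the Cxcr4 call was lost as well (adjusted p = 0.0545). Both calls were also lost when limma held only the LPS and NaCl/HI samples (adjusted p = 0.173 for Cxcr4 and 0.162 for Ccr7) and in the exact Wilcoxon rank-sum test, where the adjusted p-values were 0.285 and 0.222.

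**Figure D2:**
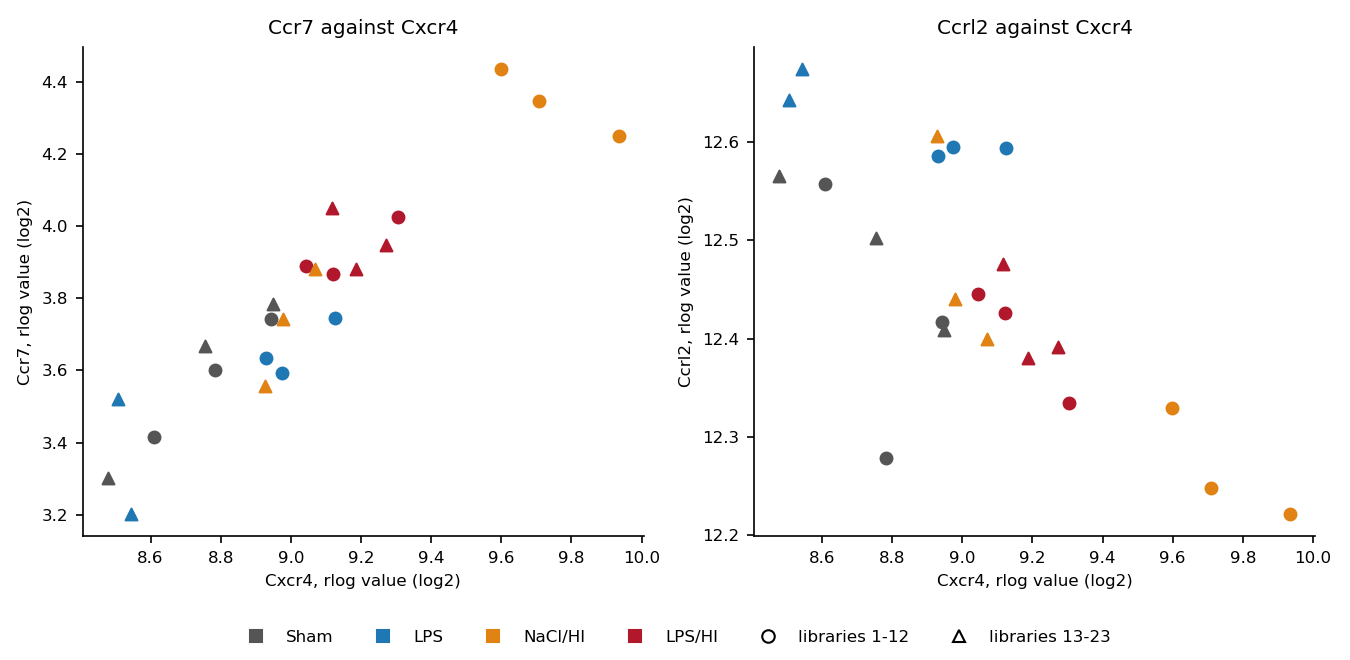
Rlog values (log2) of Ccr7 (left) and Ccrl2 (right) are plotted against Cxcr4 in the 23 samples, coloured by group, with circles for libraries 1-12 and triangles for libraries 13-23. The NaCl/HI circles form the upper right end for Ccr7, between 4.25 and 4.43, and the lower right end for Ccrl2.

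Ccrl2 is an atypical receptor that presents chemerin to neighbouring cells. Its Sham values ran from 12.28 to 12.57 (median 12.46). In LPS they were 12.59, 12.59, 12.60, 12.64 and 12.67, the narrowest spread of this receptor in any group (SD 0.04). NaCl/HI ran from 12.22 to 12.61 (median 12.36) and LPS/HI from 12.33 to 12.48 (median 12.41). All LPS samples were above all Sham and all LPS/HI samples, and 1 NaCl/HI sample, replicate 4 at 12.61, reached into the LPS range. Ccrl2 was higher in LPS than in NaCl/HI by 0.24 ± 0.06 (SE, 95% interval 0.12 to 0.37, adjusted p = 0.0147, limma), a 1.18-fold difference. It was 0.33 in libraries 1-12 (adjusted p = 0.0127) and 0.18 in 13-23 (adjusted p = 0.282), and it passed with any 1 of the 23 libraries left out. The call was lost when limma held only the LPS and NaCl/HI samples (adjusted p = 0.114) and in the exact Wilcoxon rank-sum test (adjusted p = 0.166). LPS against Sham (0.16, adjusted p = 0.0677) and LPS/HI against LPS (-0.21, adjusted p = 0.0736) missed the threshold.

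Cmklr1, the signalling receptor for chemerin, had the widest spread of the 8 receptors in Sham (SD 0.46) and LPS (SD 0.33). Its Sham values ran from 11.16 to 12.39 (median 11.97), and LPS had 11.92, 12.22, 11.84, 12.01 and 11.33. NaCl/HI ran from 11.83 to 12.44 (median 12.03) and LPS/HI from 11.48 to 12.40 (median 11.98). All groups overlapped, the largest difference was 0.26 for NaCl/HI against Sham (95% interval -0.14 to 0.66, adjusted p = 0.552, limma), and no Cmklr1 comparison passed. Its ligand chemerin, encoded by Rarres2, exceeded its LPS level by 0.36 in LPS/HI (adjusted p = 0.0471, limma).

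Fpr1, the high-affinity receptor for N-formyl peptides, ran from 6.17 to 6.46 in Sham (median 6.43). The LPS samples had 5.92, 6.03, 6.06, 6.17 and 6.24. NaCl/HI ran from 5.95 to 6.50 (median 6.33) and LPS/HI from 6.12 to 6.45 (median 6.26). Among the Sham samples 5 of 6 were above all LPS samples, and replicate 1 at 6.17 was within their range. Fpr1 was lower in LPS than in Sham by -0.29 ± 0.10 (SE, 95% interval -0.49 to -0.09, adjusted p = 0.0417, limma), with 5 of 5 LPS samples below the Sham mean. The difference was -0.35 in libraries 1-12 (adjusted p = 0.0662) and -0.19 in 13-23 (adjusted p = 0.478). It missed the threshold when LPS replicate 1, 2, 3 or 4, Sham replicate 2, 3, 4, 5 or 6 or LPS/HI replicate 2 was left out, with adjusted p up to 0.112, and with a block for library run (-0.29, adjusted p = 0.0517, limma). Median centring, quantile normalization, a replicate block and a fit of only these groups ended the call as well (adjusted p = 0.0563, 0.0972, 0.0927 and 0.0671, limma).

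Fpr2 binds formyl peptides and also annexin A1, an anti-inflammatory protein. Its Sham values ran from 5.10 to 5.70 (median 5.57), and LPS had 5.39, 5.31, 5.39, 5.08 and 5.65. NaCl/HI ran from 5.30 to 5.82 (median 5.46). LPS/HI was highest, from 5.55 to 6.29 (median 5.87), and 5 of its 6 samples were above every LPS sample. The log2 difference of LPS/HI against LPS was 0.53 ± 0.14 (SE, 95% interval 0.24 to 0.81, adjusted p = 0.0488, limma), a 1.44-fold rise with 6 of 6 samples above the LPS mean. It was 0.56 in libraries 1-12 (adjusted p = 0.119) and 0.49 in 13-23 (adjusted p = 0.322). The call was held without LPS replicate 5, LPS/HI replicate 5, NaCl/HI replicate 3 or 4 or Sham replicate 5, and was lost when any 1 of the other 18 libraries was left out, with adjusted p up to 0.167. It was also lost in the exact Wilcoxon rank-sum test, with an adjusted p of 0.123, and in limma with only these groups, a replicate block, quantile normalization, no variance trend or median centring (adjusted p = 0.143, 0.0949, 0.0766, 0.0583 and 0.0508). LPS/HI was above Sham by 0.39 (adjusted p = 0.0634) and above NaCl/HI by 0.38 (adjusted p = 0.247), and neither passed. Fpr1 and Fpr2 belong to a rodent family of closely related copies, among which reads can be divided uncertainly in transcript counting.

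By group means, NaCl/HI was the highest group for Ccr2, Ccr7, Cxcr4 and Cmklr1, LPS/HI for Cxcr2 and Fpr2, LPS for Ccrl2 and Sham for Fpr1. This order differed between the runs: in libraries 13-23, LPS/HI was highest for Ccr7 (3.96, NaCl/HI 3.73) and Cxcr4 (9.19, NaCl/HI 8.99), and Sham was highest for Ccr2 (7.48) and Cmklr1 (12.01), while in libraries 1-12 NaCl/HI was highest for Cxcr2 (8.84, LPS/HI 8.81). In none of the 8 receptors did groups next to each other in this order differ past the threshold.

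**Figure D3:**
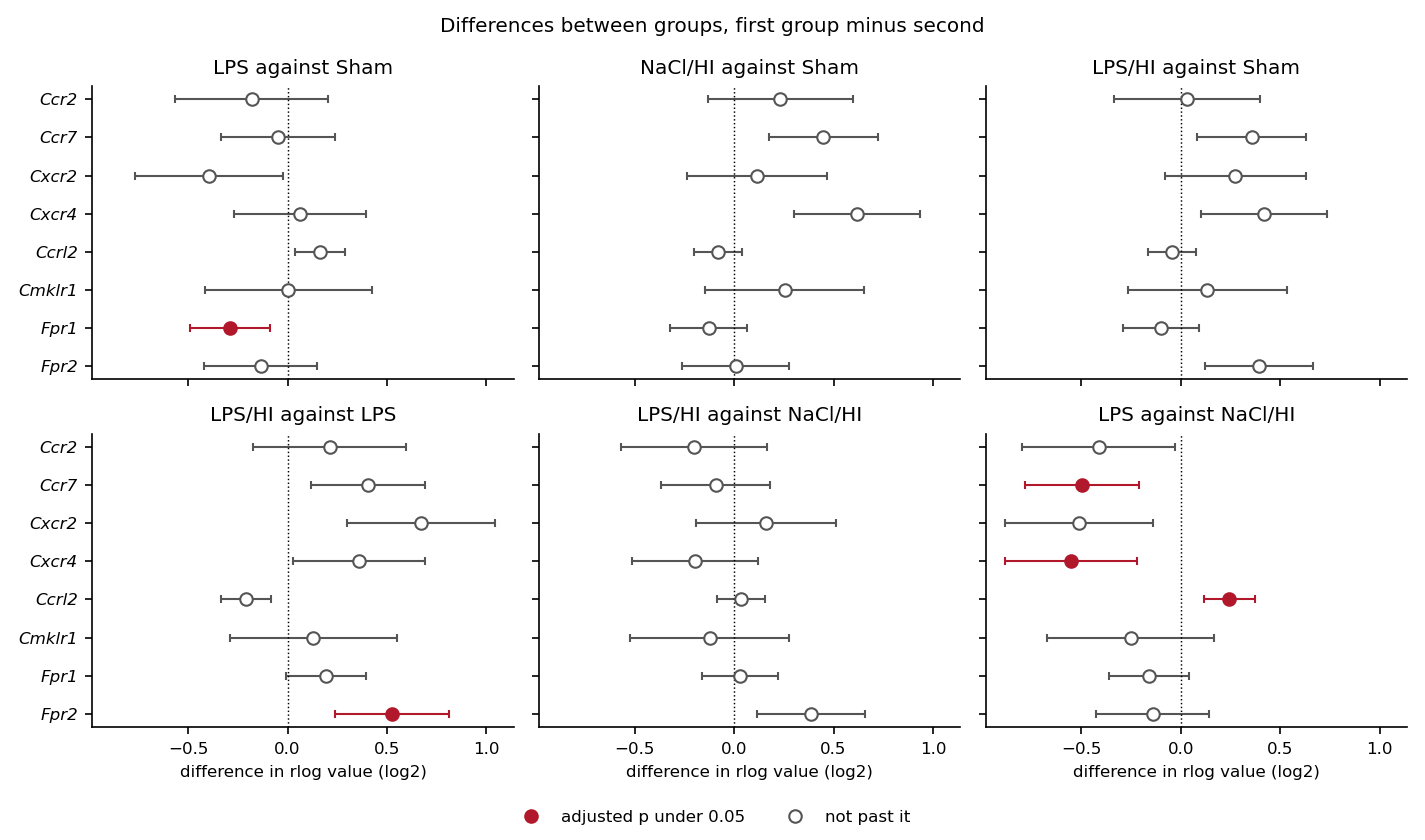
Points give the log2 difference of the rlog values between 2 groups (first minus second, horizontal axis) for each receptor, with 95% intervals from limma; filled red points passed at an adjusted p under 0.05. The filled points are Fpr1 in LPS against Sham at -0.29, Fpr2 in LPS/HI against LPS at 0.53, and Ccr7, Cxcr4 and Ccrl2 in LPS against NaCl/HI.

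The counts of passing receptors were set against those of the whole table. The shares of all genes given for each comparison are also the background for the gene and marker lists below. In LPS against Sham, 1 of 8 receptors passed, Fpr1, where 17.8% of all genes passed, 10.2% higher and 7.56% lower, so the receptors' share was near the background. In LPS against NaCl/HI, 3 of 8 passed, where 8.98% of all genes did, 5.32% higher and 3.66% lower. The median difference of the 8 receptors there was -0.33 against 0.00 for all genes, and 7 of the 8 were below 0. In LPS/HI against LPS, 1 of 8 passed, Fpr2, where 1.94% of all genes did (1.22% higher, 0.719% lower). The receptors' median was 0.28, with 7 of 8 above 0, against 0.00 for all genes, and LPS samples enter both comparisons.

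In the other comparisons 0 of the 8 receptors passed in limma. This was so in NaCl/HI against Sham, where 0.00985% of all genes passed, and in LPS/HI against Sham, where 8.77% passed (5.3% higher, 3.48% lower). It was also so in LPS/HI against NaCl/HI, where 0.202% passed. At an unadjusted p under 0.05 the receptors numbered 2, 3 and 1 of 8 in these 3 comparisons, where 14.8%, 26.8% and 10.6% of all genes did so, and the exact Wilcoxon rank-sum test called 0, 2 (Ccr7 and Cxcr4) and 0. The interaction asks whether the LPS effect differed between HI and sham-operated pups, and is the LPS/HI minus NaCl/HI difference less the LPS minus Sham difference. Since NaCl/HI pups were injected and Sham pups were not, it also holds injection against none. It passed in 1.08% of all genes and in 0 receptors, with 3 of 8 at an unadjusted p under 0.05, as 15.1% of all genes were. These were Fpr2 (0.52, adjusted p = 0.192), Fpr1 (0.32, adjusted p = 0.253) and Cxcr2 (0.56, adjusted p = 0.286), all positive in the limma fit. For Cxcr4 the interaction was -0.82 in libraries 1-12 (adjusted p = 0.0247, limma) and 0.40 in 13-23 (adjusted p = 0.294).

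The receptors fell into patterns when the 23 samples were compared, described here by Pearson's r across samples without a test. Ccr7 and Cxcr4 followed each other with r = 0.93, and 0.87 after group means were removed. Among all genes Cxcr4 ranked 2nd in likeness to Ccr7, behind G0s2 (r = 0.93), an inhibitor of fat breakdown, and the gene most like Cxcr4 was Anxa5 (r = 0.93), a phospholipid-binding annexin. Fabp4, a fatty acid carrier of macrophages and fat cells, was among the 3 closest genes of both, with r = 0.92 to Ccr7 and 0.93 to Cxcr4. Ccrl2 ran the opposite way, with r = -0.78 to Ccr7 and -0.75 to Cxcr4. Its closest genes were Pld4, Gusb and Cfp (r = 0.94, 0.91 and 0.90), which encode an endolysosomal nuclease, a lysosomal glucuronidase and the complement factor properdin.

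Cxcr2 and Fpr2 followed each other with r = 0.71. The genes closest to Fpr2 were the decoy receptor Il1r2 (r = 0.90), its ligand Anxa1 (r = 0.90) and the histone citrullinating enzyme Padi4 (r = 0.87), of which Il1r2 and Padi4 are on the neutrophil marker list used below. Those closest to Cxcr2 were Mgam, Fbxl5 and Clec4e (r = 0.92, 0.91 and 0.90), and Clec4e encodes the pattern receptor Mincle. Ccr2 was closest to the aryl hydrocarbon receptor Ahr (r = 0.86), Lrrk2 (r = 0.82) and LOC100909964 (r = 0.81). Fpr1 was closest to Piga (r = 0.85), Sec63 (r = 0.84) and Zdhhc17 (r = 0.84), and Cmklr1 had the weakest best matches, Zdhhc9 (r = 0.75), Litaf (r = 0.72) and Gtpbp4-ps2 (r = 0.72). All these samples share the surrogate variables that were removed.

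Markers of other cells moved with some of these receptors. The mean of 18 neutrophil markers ranged from 5.89 to 6.36 in Sham, from 5.75 to 6.25 in LPS, from 5.76 to 6.33 in NaCl/HI and from 6.20 to 7.18 in LPS/HI. LPS/HI replicate 4, with the highest Cxcr2 (9.44) and Fpr2 (6.29), had the highest marker mean, 7.18. LPS/HI replicates 3, 1 and 2 followed, with marker means of 6.82, 6.74 and 6.54 and Fpr2 at 5.91, 6.04 and 5.82, so the 4 samples with the highest marker means were also the 4 with the highest Fpr2. Replicate 1 also had the next highest Cxcr2, 9.27, whereas replicates 3 and 2 had 8.60 and 8.57, and NaCl/HI replicate 3 had 9.13 with a marker mean of 6.33. In LPS/HI against Sham 8 of the 18 markers passed, all higher, among them S100a9 by 1.18 and Olfm4 by 1.12 (adjusted p = 0.0193 and 0.0219, limma), while Ngp had -0.58 (adjusted p = 0.0939). In LPS/HI against LPS, Olfm4, Mmp9 and Padi4 passed and were higher by 1.24, 0.91 and 0.79 (adjusted p = 0.0385, 0.0452 and 0.0362, limma). In LPS against Sham 3 of the 18 passed, the granule genes Ngp (-1.07) and Camp (-0.71) lower and Csf3r (0.24) higher in LPS (adjusted p = 0.00261, 0.0442 and 0.0164, limma). In LPS against NaCl/HI, 1 passed, Ngp at -0.86 (adjusted p = 0.0207, limma). The part of these cells in the Fpr1, Fpr2 and Cxcr2 values was not tested.

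The mean of 14 monocyte markers ranged from 8.38 to 8.73 in Sham, from 8.71 to 8.99 in LPS, from 8.51 to 9.09 in NaCl/HI and from 8.74 to 9.17 in LPS/HI. The NaCl/HI replicates 1, 2 and 3, in which Cxcr4, Ccr7 and Ccr2 were high, had marker means of 9.03, 9.07 and 9.09, and the other NaCl/HI samples at most 8.71. LPS/HI replicate 1, which had the highest Ccr2, had the highest monocyte marker mean, 9.17. In LPS against NaCl/HI, 3 of the 14 passed, with Plac8 (1.26) and Itgal (0.27) higher and Fn1 (-0.83) lower in LPS (adjusted p = 7.17e-06, 0.0142 and 0.0261, limma). The part of such cells in the receptor values was not tested.

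Of 14 microglial markers, 6 passed in LPS against Sham and 5 in LPS against NaCl/HI, all lower in LPS, among them the microglial transcription factor Sall1 by -0.25 and -0.18 (adjusted p = 0.00232 and 0.0382, limma). Of 10 neuron markers, 5 and 2 passed in these comparisons, all lower in LPS, and of 9 astrocyte markers 2 and 2, all higher. Of 10 oligodendrocyte lineage markers 0 passed in either. The shares of all genes were 17.8% and 8.98%. The mean of 12 border-associated macrophage markers had medians of 10.53 in LPS, 10.76 in Sham and 10.72 in NaCl/HI, with overlapping ranges, and 3 of the 12 passed in LPS against NaCl/HI, 1 higher and 2 lower in LPS. The mean of 12 markers of dendritic cells, which use Ccr7, ranged from 7.35 to 7.43 in LPS and from 7.48 to 7.70 in NaCl/HI, and 4 of the 12 passed in that comparison, 1 higher and 3 lower in LPS. The part of these cells in the Ccr7 difference was not tested.

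**Figure D4:**
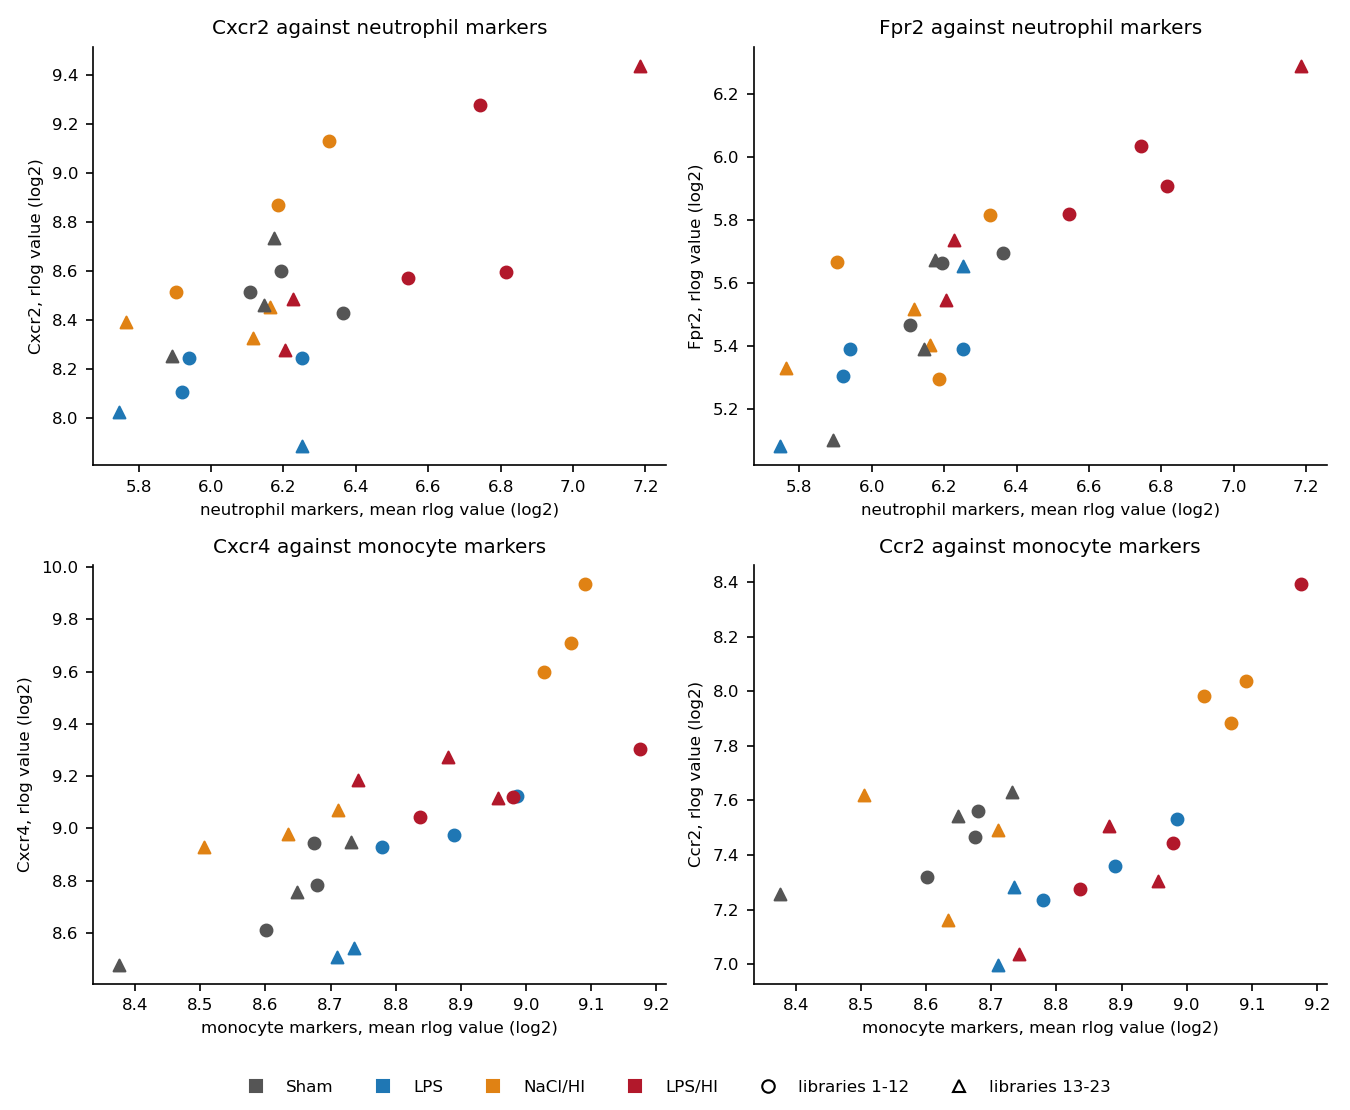
Cxcr2 and Fpr2 are plotted against the mean of 18 neutrophil markers (top) and Cxcr4 and Ccr2 against the mean of 14 monocyte markers (bottom), all as rlog values (log2), 1 point per sample, coloured by group, with circles for libraries 1-12 and triangles for 13-23. The sample farthest to the right in the top panels is LPS/HI replicate 4, with a marker mean of 7.18, and the NaCl/HI circles in the lower left panel lie between 9.03 and 9.09 on the horizontal axis.

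Among 15 other chemokine receptors, 5 passed in LPS against Sham. Cxcr3, the receptor of interferon-induced chemokines on T cells, was higher by 0.54 (adjusted p = 0.00751, limma) and Ccr6, the Ccl20 receptor, by 0.32 (adjusted p = 0.0354). Ccr3, the eotaxin receptor, was lower by -0.33 (adjusted p = 0.0239), Cxcr1 by -0.31 (adjusted p = 0.0363) and the fractalkine receptor Cx3cr1, a defining microglial gene, by -0.17 (adjusted p = 0.0308). Cxcr3 had the largest difference in LPS against NaCl/HI, 0.82 (adjusted p = 0.000414, limma), where 2 of the 15 passed, both higher. In LPS/HI against LPS, 1 of 15 passed, Cxcr3, at -0.67 (adjusted p = 0.0123, limma).

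Lymphocytes carry Cxcr3 and Ccr6, and some of their markers moved in the same comparisons. Of 9 B cell markers, 4 passed in LPS against Sham, with Cd22 (0.64), Cd79b (0.52) and Fcrla (0.40) higher and Ebf1 (-0.23) lower in LPS (adjusted p = 0.000481, 0.000861, 0.00397 and 0.0130, limma). Cd22 and Cd79b also passed in LPS against NaCl/HI (0.37 and 0.49, adjusted p = 0.0420 and 0.00269) and in LPS/HI against Sham (0.59 and 0.35, adjusted p = 0.00368 and 0.0255, limma), and 0 of the 9 passed in LPS/HI against LPS. The defining B cell genes Cd79a and Ms4a1 did not pass in LPS against Sham, at 0.05 and 0.09 (adjusted p = 0.733 and 0.120, limma). The mean of the 9 ranged from 5.01 to 5.16 in Sham, from 5.15 to 5.34 in LPS, from 5.07 to 5.15 in NaCl/HI and from 5.14 to 5.27 in LPS/HI.

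Of 12 T and NK cell markers measured, 1 passed in LPS against Sham and in LPS against NaCl/HI, Cd5, lower in LPS by -0.37 and -0.30 (adjusted p = 0.0106 and 0.0498, limma). With Sham as reference, LPS/HI had lower Lck, at -0.25, and higher Nkg7, at 0.17 (adjusted p = 0.0255 and 0.0439, limma), and 0 of the 12 passed in LPS/HI against LPS. Their mean ranged from 4.51 to 4.61 in Sham, from 4.42 to 4.54 in LPS, from 4.46 to 4.64 in NaCl/HI and from 4.45 to 4.56 in LPS/HI. The part of lymphocytes in the Cxcr3 and Ccr6 values was not tested.

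Ackr1, an atypical receptor of venular endothelium and red cells, was higher in LPS/HI than in Sham by 0.41 (adjusted p = 0.0459) and than in NaCl/HI by 0.61 (adjusted p = 0.0460, limma). Of 11 endothelial markers, 2 passed in LPS/HI against Sham and 3 in LPS/HI against LPS, all higher, 5 in LPS against Sham, 1 higher and 4 lower, 3 in LPS against NaCl/HI, 1 higher and 2 lower, and 1 in the interaction. Their mean ranged from 10.73 to 11.02 in Sham, from 10.59 to 10.87 in LPS, from 10.76 to 10.85 in NaCl/HI and from 10.80 to 11.11 in LPS/HI, and the part of such cells in these values was not tested. The scavenger receptor Ackr3 was the 1 of the 15 receptors past the threshold in the interaction (0.41, adjusted p = 0.0489, limma). Over all comparisons the medians of the 15 receptors lay between -0.07 and 0.08.

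Among 18 receptors for other attractants, the oxysterol receptor Gpr183 was higher in LPS than in Sham by 0.44 (adjusted p = 0.00627, limma) and than in NaCl/HI by 0.51 (adjusted p = 0.00389). P2ry12, which draws microglial processes to released nucleotides, was lower in LPS than in Sham by -0.36 (adjusted p = 0.0387), and the anaphylatoxin receptor C3ar1 by -0.17 (adjusted p = 0.0492). C3ar1 was also lower in LPS/HI than in Sham, by -0.23 (adjusted p = 0.0171, limma), where S1pr4, a leukocyte sphingosine-1-phosphate receptor, was higher by 0.55 (adjusted p = 0.0184). Plaur, the urokinase receptor, was lower in LPS than in NaCl/HI by -0.75 (adjusted p = 0.0253, limma), its NaCl/HI mean being 8.49 and its LPS mean 7.74.

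The ligands of the receptors were measured in 19 genes. Ccl2 and Ccl7, which act on Ccr2, were lower in LPS than in Sham by -0.66 and -0.76 (adjusted p = 0.000760 and 0.000213, limma) and than in NaCl/HI by -0.53 and -0.80 (adjusted p = 0.00799 and 0.000302). Mif, a cytokine that binds Cxcr2 and Cxcr4, and Ccl6, a rodent CC chemokine, were higher in LPS than in Sham by 0.54 and 0.61 (adjusted p = 0.00249 and 0.00598, limma). The list held 5 genes past the threshold in that comparison, the fifth being Camp, the precursor of an Fpr2 ligand and a neutrophil marker, at -0.71 (adjusted p = 0.0442). In LPS/HI against LPS, 3 of 19 passed and were higher, with Anxa1 at 0.73 (adjusted p = 0.0189), Ccl7 at 0.51 (adjusted p = 0.0371, limma) and Rarres2 as given above. Anxa1 (0.58, adjusted p = 0.0211, limma) and Ccl6 (0.81, adjusted p = 0.00248) were also higher in LPS/HI than in Sham. The group means of the Cxcr4 ligand Cxcl12 ran from 9.16 to 9.38, and those of the Cxcr2 ligands Cxcl1 and Cxcl2 from 9.16 to 9.59 and from 12.02 to 12.18, with no comparison past the threshold.

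Of all genes, 17.8% passed in LPS against Sham and 8.98% in LPS against NaCl/HI. Among 38 genes of receptor signalling and desensitization, 11 passed in LPS against Sham, 8 higher and 3 lower, and 7 in LPS against NaCl/HI, 5 higher and 2 lower. Those in LPS against Sham included the haematopoietic GTPase Rac2 (0.35, adjusted p = 0.000405), the G protein regulator Rgs1 (0.33, adjusted p = 0.0256) and the engulfment adaptor Elmo1 (-0.33, adjusted p = 0.00128, limma). In LPS against NaCl/HI they included Elmo1 (-0.25, adjusted p = 0.0193), Rac2 (0.23, adjusted p = 0.0199) and the receptor kinase Grk6 (0.23, adjusted p = 0.00104, limma). In LPS/HI against Sham, where 8.77% of all genes passed, 6 of 38 did, 3 in each direction. Among them were Elmo1 (-0.26, adjusted p = 0.0136), Rac2 (0.26, adjusted p = 0.00978) and the focal adhesion kinase relative Ptk2b (0.25, adjusted p = 0.0264, limma).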

How the data were processed

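RNA of CD11b/c-isolated microglia was sequenced in 23 samples, grouped by their titles. Per the labels and methods, the authors quantified reads with kallisto 0.48.0 on mRatBN7.2, imported counts into DESeq2, left out genes with under 10 counts in all and applied rlog. The deposited values are log2 values from which the authors had removed 3 surrogate variables, and 20301 genes range from -1.35 to 23.4. Counts were not used here, so depth is unknown and limits the precision of weakly expressed genes. With group means taken out, the values had 16 free dimensions, as after such a removal, so p-values may come out too low. Whether samples of a group were separate litters is not stated, and p-values measure the spread between these samples.

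The 6 pairs of groups and the interaction were tested two-sided with limma 3.58.1 in R 4.3.3, with a variance trend and residual degrees of freedom lowered from 19 to 16, and adjusted by Benjamini-Hochberg over all genes. Fits within either run of library numbers kept all their residual degrees of freedom. The fold threshold of 2 was an alternative. No gene was filtered out. Other steps used scipy 1.17.1, pandas 2.3.3, numpy 2.4.6 and matplotlib 3.10.9 in Python 3.11.15. The fit was tested on simulated data. The test on counts that the methods describe was not run.

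All listed receptors were named, and from the lists of receptors, ligands and signalling genes up to 4 past the threshold per comparison by size, with exceptions where a full list is given. A few single genes that this rule names were left out of the text and are not reported here. The 3 genes with the highest correlation to each receptor were named. Marker genes and group means were picked after their values were seen. The members and lists were chosen with earlier results of these data known. Symbols were matched as they stand, and 1 older symbol (Gpr1, as Cmklr2) through RefSeq. Alternatives were other degrees of freedom, no trend, robust variances, only the 2 groups, blocks of replicate number or library run, leaving out the lowest 25% of genes, quantile normalization, median centring, array weights, the exact Wilcoxon test, the fold threshold and leaving out each library.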

Additional observations from a re-analysis of the deposited data

Results flagged for a closer look

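In LPS/HI replicate 1, Ccr2 had a log2 value of 8.39, while the other 5 LPS/HI samples lay between 7.04 and 7.51, a gap of 0.66 of the whole range of the group. It was the 1 sample to stand apart among the 32 groups of samples examined for the 8 receptors, and chance marks about 1 in 20 such groups. The same sample had the highest mean of the monocyte markers, 9.17, and the part of such cells in its Ccr2 value was not tested.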

How the results depend on the processing

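Depth is unknown, and 3 removed variables can make p-values too low. No called difference changed direction, and of 51 others 14, at most 0.21 in size, changed sign under some setting with both library runs in the fit. Fits within 1 run are not in that tally and turned larger ones, such as the Cxcr4 interaction. Shares of all genes passing under the alternatives are not given here, and a more lenient setting can add calls across the whole table. A change in a count below is thus not read as particular to the receptors. Counts of receptors passing are given against 1 in LPS against Sham, 0 in LPS/HI against Sham, 0 in NaCl/HI against Sham, 1 in LPS/HI against LPS, 0 in LPS/HI against NaCl/HI, 3 in LPS against NaCl/HI and 0 in the interaction. With 19 residual degrees of freedom they were 2 in LPS against Sham, 1 in NaCl/HI against Sham, 2 in LPS/HI against Sham, 3 in LPS/HI against LPS (Ccrl2, Cxcr2 and Fpr2) and 4 in LPS against NaCl/HI, where Cxcr2 was added. Robust variances gave 2 there, without Cxcr4. With array weights, whose estimation stopped before it converged, they were 2 in LPS against Sham, 2 in NaCl/HI against Sham and 3 in LPS/HI against Sham. Under the same weights they were 4 in LPS/HI against LPS, 3 in LPS/HI against NaCl/HI and 1 in the interaction. With the exact Wilcoxon rank-sum test they were 3 in LPS against Sham, 2 in LPS/HI against Sham and 0 in LPS/HI against LPS and in LPS against NaCl/HI. A fold change above 2 left 0 in every comparison. Median centring and quantile normalization left 0 in LPS against Sham and in LPS/HI against LPS. No variance trend left 0 in LPS/HI against LPS, and leaving out the lowest 25% of genes gave 2 there. With only the 2 groups compared the counts were 2 in LPS/HI against Sham and 0 in LPS/HI against LPS and in LPS against NaCl/HI, and Cxcr2 passed in place of Fpr1 in LPS against Sham. With a block for library run they were 1 in LPS/HI against Sham and 3 in LPS/HI against LPS (Ccrl2, Cxcr2 and Fpr2), and Ccrl2 passed in place of Fpr1 in LPS against Sham. With each library left out in turn, the counts ranged from 0 to 2 in LPS against Sham (2 without NaCl/HI replicate 4), from 0 to 2 in NaCl/HI against Sham (2 without NaCl/HI replicate 4), from 0 to 2 in LPS/HI against LPS (2 without LPS/HI replicate 5 or NaCl/HI replicate 3 or 4) and from 1 to 4 in LPS against NaCl/HI (1 without LPS replicate 4 or 5 or NaCl/HI replicate 1, 2 or 3). Causes were not tested, apart from settings that by construction change the test or the samples. With a replicate block, 0 passed in LPS against Sham and in LPS/HI against LPS, and Ccr7, Ccrl2 and Cxcr4 passed in LPS against NaCl/HI. The replicate numbers did not pair the samples: the deviations of 33 pairs with the same number correlated between -0.47 and 0.47 (median -0.03), and 9 exceeded 0.1.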
